A study of Caenorhabditis elegans with 6 samples.

Results

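The 10 genes described here encode the V0 sector of the *C. elegans* vacuolar H+-ATPase (V-ATPase). They were chosen by name, from the subunits that the sector is known to contain, and they are 10 of the 46661 genes in the count table. Earlier results of these data were known when they and the gene lists used below were chosen. Subunit c is encoded by *vha-1* (R10E11.8), *vha-2* (R10E11.2) and *vha-3* (Y38F2AL.4), and its relative c'' by *vha-4* (T01H3.1). Subunit a is encoded by *vha-5* (F35H10.4), *vha-6* (VW02B12L.1), *vha-7* (C26H9A.1) and *unc-32* (ZK637.8). Subunit d is encoded by *vha-16* (C30F8.2) and subunit e by *vha-17* (F49C12.13).

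The V-ATPase is a rotary proton pump that acidifies lysosomes, endosomes and synaptic vesicles and that also works at the surface of some epithelia. Its soluble V1 sector breaks down ATP and turns a ring of c-type proteolipids in the membrane-bound V0 sector, and protons cross the membrane where this ring meets subunit a. In worms the subunit a genes are used by different tissues, whereas the other subunits are shared more widely, and the proteolipid genes are known for strong expression in the excretory cell.

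RNA was measured in whole L4 larvae of *folr-1(syb4116)* (n = 3 libraries) and of the wild-type strain N2 (n = 3 libraries). *folr-1* encodes a folate receptor family protein, and *syb4116* is a CRISPR/Cas9 allele with a premature stop codon near the start of the gene. Both strains were kept at 20 °C and fed *E. coli* HT115 that carried the empty RNAi vector, and the study describes the 3 libraries of each strain as biological replicates. Because whole animals were sequenced, a change in the number of cells of a tissue and a change in RNA per cell cannot be told apart. One allele was sequenced, so the comparison is between these strains.

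The libraries held between 21646678 and 25946226 counts. Libraries of the same strain differed by more than sampling noise, with a chi-square per degree of freedom between 3.17 and 8.17. The mutated gene itself had 14, 11 and 7 counts in *folr-1(syb4116)* libraries, against 32, 37 and 59 counts in N2 libraries. This was a log2 fold change of -2.02 ± 0.31 (SE, adjusted p = 0.000499, edgeR's quasi-likelihood test, adjusted by the Benjamini-Hochberg method). Of 15432 genes tested, 561 rose and 512 fell in the mutant at an adjusted p under 0.05. The genes of the marker lists for intestine, epidermis, excretory canal cell, neurons, germline and sperm had counts in the libraries, none of them at 0 throughout.

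All 10 V0 genes passed the filter on low counts. One of them, *vha-5*, fell in *folr-1(syb4116)*, and 0 rose (edgeR's quasi-likelihood test, adjusted by the Benjamini-Hochberg method over all tested genes). Among all tested genes, 3.64% rose and 3.32% fell. At an unadjusted p under 0.05 there were 2 V0 genes with a higher level in the mutant, *vha-1* and *vha-2*, and 2 with a lower level, *vha-5* and *vha-7*, where 10.3% of all tested genes were higher and 9.91% lower. No V0 gene passed as higher by DESeq2, limma-voom or limma on FPKM either. The median log2 fold change of the 10 genes was 0.03, with 8 above 0 and 2 below, beside a median of 0.003 and 50.7% above 0 over all tested genes. In 6 of the 10 genes the CPM (counts scaled to 1000000 per library with TMM factors) of the mutant libraries did not overlap that of the N2 libraries, which was the case for 25.1% of all tested genes. These were *vha-1*, *vha-2*, *vha-3* and *vha-16* on the higher side, and *vha-5* and *vha-7* on the lower side. The sizes are small. The fitted changes of the 10 genes lay between -8.87% and 7.32%, as the plot of each library relative to N2 shows.

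**Figure D1:**
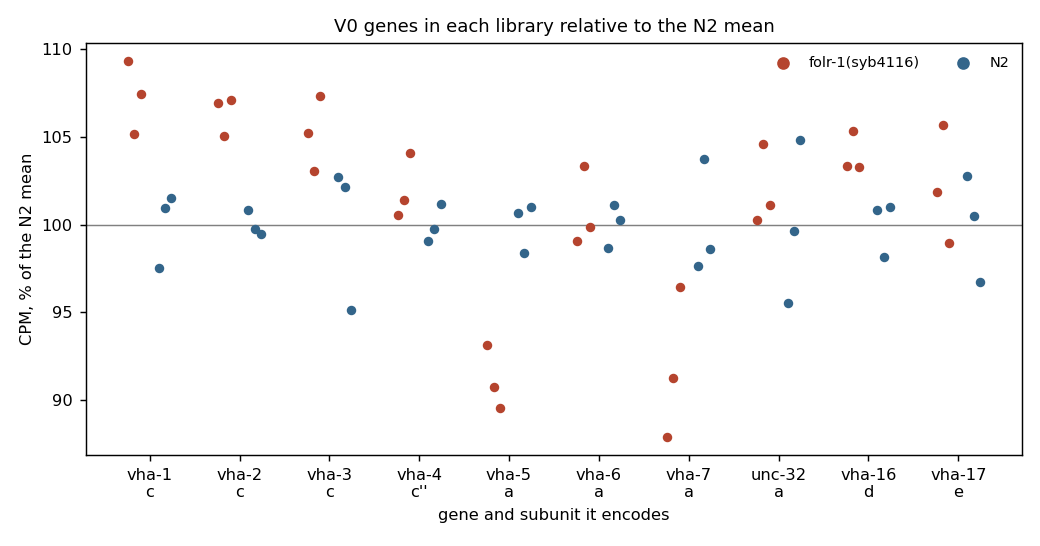
CPM of each V0 gene in each library, as a percentage of the mean of the 3 N2 libraries, with *folr-1(syb4116)* left of N2 for each gene and 1 point per library. The mutant points of *vha-5* and *vha-7* lie below those of N2, and the mutant points of *vha-1*, *vha-2*, *vha-3* and *vha-16* lie above them.

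The levels of the V0 genes covered a wide range and had the same order in both strains. FPKM (fragments scaled by gene length and library size) is per gene length and is used for levels between genes. *vha-2* stood first at 899 ± 8.71 FPKM in *folr-1(syb4116)* and 845 ± 7.21 FPKM in N2 (SD, n = 3 each), above 98.9% of the tested genes. It was followed by *vha-3*, *vha-1*, *vha-16*, *vha-17*, *vha-4*, *vha-6*, *unc-32*, *vha-5* and *vha-7*. *vha-7* stood last at 12.06 ± 0.568 FPKM in the mutant and 13.1 ± 0.426 FPKM in N2, above 52.9% of the tested genes. Neighbours in this order did not overlap within a strain, with these exceptions: *vha-17* and *vha-4* overlapped in both strains, and *vha-16* and *vha-17* overlapped in N2.

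The places of *vha-1* and *vha-3* depend on the gene length. The FPKM values imply a length of 818 bp for *vha-1* and 567 bp for *vha-3*, whereas the exons in the WBcel235 annotation hold 510 and 486 bp. For the other 8 genes the length behind FPKM was between 0.995 and 1.02 times the exon length. With exon lengths, *vha-1* came before *vha-3* in both strains, at 506 ± 9.72 and 428 ± 8.80 in the mutant and 471 ± 10.2 and 407 ± 17.2 in N2, in CPM per kilobase. *vha-4* then came before *vha-17*. This choice was made after the values had been seen, and it leaves the fold changes between strains untouched.

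**Figure D2:**
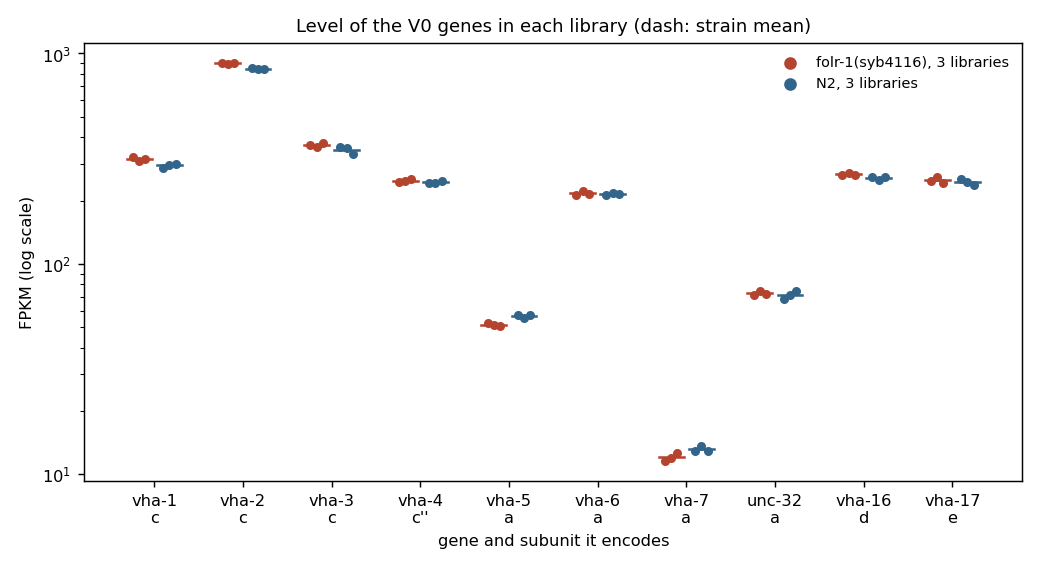
FPKM of the 10 V0 genes on a log scale, with *folr-1(syb4116)* left of N2 for each gene, 1 point per library and a dash at the strain mean. The levels run from 12.06 FPKM for *vha-7* to 899 FPKM for *vha-2* in the mutant and from 13.1 to 845 FPKM in N2.

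The c-type proteolipids form the rotating ring. *vha-1* (R10E11.8) encodes one of them and lies on chromosome III from 9781254 to 9781763, on the plus strand, in a single exon. It had 321, 310 and 316 FPKM in *folr-1(syb4116)* libraries, against 287, 297 and 298 FPKM in N2 libraries. All mutant libraries were above all N2 libraries, and the gap from the lowest mutant library to the highest N2 library was small beside the level. For this gene the log2 fold change was 0.10 ± 0.037 (SE, 95% interval 0.02 to 0.18), and it did not pass the test (adjusted p = 0.122, edgeR).

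*vha-2* (R10E11.2) starts 400 bp after the end of *vha-1* on the same strand, from 9782164 to 9783224 on chromosome III, and has 3 exons. It had 902, 889 and 905 FPKM in *folr-1(syb4116)* libraries, against 853, 842 and 840 FPKM in N2 libraries. The strains did not overlap, and the libraries within each strain lay close together, with a coefficient of variation of 1.06% in the mutant and 0.724% in N2. Between the strains the log2 fold change was 0.09 ± 0.033 (SE, 95% interval 0.02 to 0.16, adjusted p = 0.127, edgeR). The ratio of *vha-2* to *vha-1* FPKM within a library was 2.85 ± 0.033 in the mutant and 2.88 ± 0.084 in N2 (SD, n = 3 each), and the strains overlapped.

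*vha-3* (Y38F2AL.4) lies in a single exon on the minus strand of chromosome IV, from 2315460 to 2315945. It had 367, 360 and 375 FPKM in *folr-1(syb4116)* libraries, against 359, 357 and 332 FPKM in N2 libraries. The strains did not overlap, although the lowest mutant library and the highest N2 library differed by less than the spread within either strain. The log2 fold change was 0.07 ± 0.041 (SE, 95% interval -0.01 to 0.16, adjusted p = 0.336, edgeR). *vha-2* and *vha-3* are known to encode the same protein, and both have a coding length of 483 bp here, so reads from stretches that they share may have been split or left out and their counts are uncertain. Their FPKM ratio, *vha-2* over *vha-3*, was 2.45 ± 0.029 in the mutant and 2.42 ± 0.093 in N2 (SD, n = 3 each), with overlap. The next gene on the same strand, 892 bp after *vha-3*, is *vha-11*, which encodes V1 subunit C. The ratio of *vha-3* to *vha-11* FPKM was 1.75 ± 0.065 in the mutant and 1.73 ± 0.071 in N2, again with overlap.

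*vha-4* (T01H3.1) encodes the larger proteolipid c'' and lies on the minus strand of chromosome II, from 7878082 to 7879316. It had 245, 247 and 254 FPKM in *folr-1(syb4116)* libraries, against 242, 243 and 246 FPKM in N2 libraries. The strains overlapped, with the highest N2 library above the lowest mutant library. The log2 fold change of 0.03 ± 0.036 (SE) had a 95% interval from -0.05 to 0.10 and an adjusted p of 0.729 (edgeR).

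Summed over the 4 proteolipid genes, the level was 1835, 1806 and 1849 FPKM in *folr-1(syb4116)* libraries, against 1742, 1739 and 1716 FPKM in N2 libraries. The sums did not overlap. Within this sum *vha-2* held 49.1% in the mutant and 48.8% in N2, and the shares of *vha-1*, *vha-2* and *vha-3* overlapped between the strains. The share of *vha-4* was 13.6 ± 0.213% in the mutant and 14.1 ± 0.252% in N2 (SD, n = 3 each), without overlap.

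Subunit a provides the proton path beside the ring and directs the pump to particular membranes. *vha-5* (F35H10.4), the subunit a gene known for its work in the epidermis and the excretory canal, is on chromosome IV from 8303968 to 8307371, on the plus strand, with 5 exon blocks. It had 4005, 3681 and 3237 counts in *folr-1(syb4116)* libraries, against 3698, 3684 and 4295 counts in N2 libraries. After scaling this was 157, 153 and 151 CPM in the mutant libraries, against 169, 165 and 170 CPM in the N2 libraries. Every mutant library was below every N2 library.

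*vha-5* averaged 51.5 ± 1.01 FPKM in *folr-1(syb4116)* and 56.5 ± 0.815 FPKM in N2 (SD, n = 3 each). It fell by 0.13 on the log2 scale (SE 0.038, 95% interval -0.21 to -0.05, adjusted p = 0.0403, edgeR's quasi-likelihood test), a change of -8.87% with an interval from -13.8% to -3.70%. The direction was the same in all 17 alternative settings, with log2 fold changes between -0.149 and -0.110, and the test was passed in 5 of them. The call was lost when any 1 of the 6 libraries was left out (edgeR, adjusted p between 0.0527 and 0.133), and with a correction for gene length (-0.11, adjusted p = 0.1003).

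Markers of the tissues known to use *vha-5* were summed in each library. The excretory canal cell list (*aqp-8*, *pgp-12*, *sulp-4*, *glt-3*, *exc-4* and *clh-3*) summed to between 82.3 and 86.1 CPM in *folr-1(syb4116)* and between 91.2 and 96.6 CPM in N2. One of its genes fell, the chloride channel gene *clh-3* (log2 fold change -0.256, adjusted p = 0.0457, edgeR), beside 3.32% of all tested genes. Of the 6 log2 fold changes, 5 were below 0, with a median of -0.185. The 8 epidermis markers summed to between 320 and 364 CPM in the mutant and between 276 and 322 CPM in N2, with overlap. One of them rose, the moulting gene *mlt-10*, beside 3.64% of all tested genes. Of the 8 log2 fold changes 5 were above 0 and 3 below, with a median of 0.05. The part of these lists in the value of *vha-5* was not tested. Exons of *vha-5* also share 57 bp with those of F35H10.10 on the opposite strand, which had 4083, 4255 and 3376 counts in the mutant and 4018, 3687 and 4474 counts in N2. Whether the libraries kept the strand is not settled by the methods, which mention kits of both kinds, so reads from this stretch cannot be assigned to either gene with certainty.

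*vha-7* (C26H9A.1), the subunit a gene known from the epidermis and the uterus, lies on the plus strand of chromosome IV from 12640462 to 12650652. It had 1146, 1122 and 1057 counts in *folr-1(syb4116)* libraries, against 1088, 1178 and 1271 counts in N2 libraries. In CPM these were 44.8, 46.5 and 49.1 in the mutant libraries, against 49.8, 52.9 and 50.3 in the N2 libraries. The strains did not overlap, and the highest mutant library lay close to the lowest N2 library. The log2 fold change was -0.12 ± 0.051 (SE, 95% interval -0.23 to -0.02), and it did not pass the test (adjusted p = 0.177, edgeR).

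*vha-6* (VW02B12L.1) encodes the subunit a of the apical membrane of the intestine. It lies on the minus strand of chromosome II from 11435210 to 11438452. It had 213, 223 and 215 FPKM in *folr-1(syb4116)* libraries, against 213, 218 and 216 FPKM in N2 libraries. The strains overlapped, and the log2 fold change was 0.01 ± 0.035 (SE, 95% interval -0.06 to 0.08, adjusted p = 0.908, edgeR). Its sign depended on 1 library, since the value was -0.009 without *folr-1(syb4116)* replicate 2. The 8 intestine markers summed to between 2228 and 2356 CPM in the mutant and between 2051 and 2190 CPM in N2, without overlap. Of these, 2 rose, the intermediate filament gene *ifb-2* and the actin gene *act-5*, beside 3.64% of all tested genes. The median log2 fold change of the 8 was 0.14. The part of these markers in the values of V0 genes was not tested.

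*unc-32* (ZK637.8) encodes the subunit a isoform known for its role in neurons, where it takes part in filling synaptic vesicles. It lies on the plus strand of chromosome III from 8905615 to 8911756. It had 71.3, 74.5 and 72.0 FPKM in *folr-1(syb4116)* libraries, against 68.1, 70.9 and 74.6 FPKM in N2 libraries. The mutant libraries lay within the range of the N2 libraries. The log2 fold change was 0.03 ± 0.041 (SE, 95% interval -0.06 to 0.12, adjusted p = 0.768, edgeR), and it was -0.004 without N2 replicate 1. The 10 neuron markers summed to between 334 and 345 CPM in the mutant and between 340 and 350 CPM in N2, with overlap, and their log2 fold changes ran from -0.16 to 0.15 with a median of -0.02.

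The 4 subunit a genes together had 349, 361 and 350 FPKM in *folr-1(syb4116)* libraries, against 351, 358 and 361 FPKM in N2 libraries. These sums overlapped. The share of each gene in the sum was described and not tested. As parts of one sum the shares are not independent, since a lower share of any gene raises the others. *vha-6* held 61.5 ± 0.316% of it in the mutant and 60.5 ± 0.512% in N2, without overlap (SD, n = 3 each). *unc-32* held 20.5 ± 0.108% in the mutant and 20.0 ± 0.654% in N2, with overlap. *vha-5* held 14.6 ± 0.446% in the mutant and 15.9 ± 0.355% in N2, without overlap. *vha-7* held 3.41 ± 0.172% in the mutant and 3.69 ± 0.110% in N2, with overlap.

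**Figure D3:**
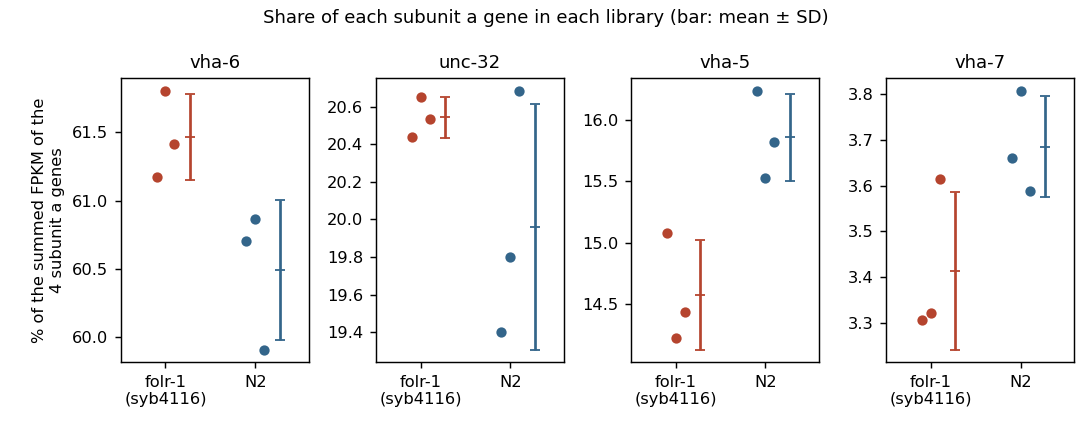
Share of each subunit a gene in the summed FPKM of the 4 genes, in percent, with *folr-1(syb4116)* left of N2, 1 point per library and a bar for the mean ± SD (n = 3 each). The panels have different axis ranges that do not start at 0. The mutant points lie above those of N2 for *vha-6* (61.5% and 60.5% on average) and below them for *vha-5* (14.6% and 15.9%).

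Ratios within a library need no scaling between libraries, and 6 pairs of subunit a genes were compared. The log2 ratio of *vha-6* to *vha-5* was 2.02, 2.12 and 2.09 in *folr-1(syb4116)* libraries, against 1.90, 1.97 and 1.92 in N2 libraries. It did not overlap, and the mean difference was 0.15 (p = 0.1, two-sided exact permutation test, adjusted p = 0.2 over the 6 pairs). The ratios of *unc-32* to *vha-5* and of *vha-6* to *vha-7* also did not overlap, with mean differences of 0.16 and 0.13 and the same p-values by the exact test. The smallest p that 3 libraries against 3 can give in this test is 0.1, so no ratio could pass 0.05. The ratio of *unc-32* to *vha-7* overlapped (difference 0.15, exact p = 0.2, adjusted p = 0.3). The ratios of *vha-6* to *unc-32* and of *vha-5* to *vha-7* differed by -0.02 and -0.01, within their spread.

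The remaining V0 subunits are d, which links the ring to the stalk of V1, and the small membrane subunit e. *vha-16* (C30F8.2), for subunit d, lies on the minus strand of chromosome I from 5079910 to 5082279. It had 265, 270 and 265 FPKM in *folr-1(syb4116)* libraries, against 259, 252 and 259 FPKM in N2 libraries. The strains did not overlap, with a log2 fold change of 0.06 ± 0.035 (SE, 95% interval -0.02 to 0.13, adjusted p = 0.402, edgeR).

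*vha-17* (F49C12.13), for subunit e, is also known as *fus-1* for its role in keeping epidermal cells from fusing. It lies on the plus strand of chromosome IV from 9321801 to 9322525. It had 249, 259 and 242 FPKM in *folr-1(syb4116)* libraries, against 252, 246 and 237 FPKM in N2 libraries. The strains overlapped, with a log2 fold change of 0.03 ± 0.041 (SE, 95% interval -0.06 to 0.12, adjusted p = 0.732, edgeR). Exons of *vha-17* share 37 bp with *nspg-11* on the opposite strand and those of *unc-32* share 38 bp with a non-coding RNA gene, ZK637.20. *nspg-11* had between 188 and 252 counts in each library, and ZK637.20 had 0 counts in every library. Exons of *vha-2* share 219 bp with R10E11.6 on the same strand, which had 370, 419 and 384 counts in the mutant and 370, 385 and 383 counts in N2. Reads from this stretch cannot be assigned to either gene with certainty. This bears on the level of *vha-2* and on its ratios to *vha-1* and *vha-3*.

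The sectors and subunits were then set beside each other within libraries. The ratio of the proteolipid sum to the subunit a sum was 5.262, 5.003 and 5.277 in *folr-1(syb4116)* libraries, against 4.962, 4.855 and 4.760 in N2 libraries. The strains did not overlap, and the mean ratio in the mutant was 1.07 times that in N2. With CPM the ratio averaged 1.51 in the mutant and 1.41 in N2, and with exon lengths 5.90 in the mutant and 5.53 in N2. It was 1.07 times as high in each case. These scales multiply each gene by a factor that is the same in both strains, so they are no independent check of the difference. The ratio was not recomputed with a correction for gene length. The summed V0 genes had between 2696 and 2706 FPKM in the mutant and between 2572 and 2604 FPKM in N2. The ratio of the V0 sum to the V1 sum overlapped between the strains, at 1.05 ± 0.002 in the mutant and 1.07 ± 0.027 in N2 (SD, n = 3 each).

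Gene length moved with these differences. The lengths behind FPKM were 567 to 1002 bp for the proteolipid genes and 2721 to 3883 bp for the subunit a genes. Over all tested genes the median log2 fold change was 0.02 for 5466 genes under 1000 bp and 0.01 for 6465 genes of 1000 to 2000 bp. It was -0.01 for 2085 genes of 2000 to 3000 bp, the range of *vha-5* and *vha-6*, and -0.05 for 1416 genes over 3000 bp. With a correction for length, *vha-1* and *vha-2* had log2 fold changes of 0.08 and 0.07, and *vha-3* and *vha-4* had 0.06 and 0.01. *vha-5* and *vha-7* had -0.11 and -0.08. Those of *vha-6* and *unc-32* were 0.03 and 0.07. The V0 median was then 0.03, with 8 of the 10 genes above 0.

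Of the 12 genes listed for the V1 sector and the accessory proteins, 1 rose and 0 fell by edgeR, beside 3.64% and 3.32% of all tested genes. The counts were the same by DESeq2 and limma. At an unadjusted p under 0.05, 3 of the 12 had a higher level and 1 a lower level in the mutant (edgeR), beside 10.3% and 9.91% of all tested genes. The gene that rose was *vha-12*, which encodes the ATP-binding subunit B and lies on chromosome X. It had 617, 628 and 609 CPM in *folr-1(syb4116)* libraries, against 499, 509 and 504 CPM in N2 libraries, with a wide gap between the strains. The log2 fold change was 0.30 ± 0.034 (SE, adjusted p = 2.96e-05, edgeR), and it passed the test in all 17 alternatives. The other 11 genes had log2 fold changes between -0.20 and 0.11. The lower bound belonged to *spe-5*, the subunit B gene known for its use in sperm (-0.20 ± 0.083, SE, adjusted p = 0.171, edgeR). The 7 sperm markers summed to between 346 and 361 CPM in the mutant and between 374 and 377 CPM in N2, without overlap. Of them, 2 fell, *fer-1* and *spe-9*, beside 3.32% of all tested genes. Of the 7 log2 fold changes, 6 were below 0, with a median of -0.11. The 8 germline markers summed to between 1819 and 1862 CPM in the mutant and between 1872 and 1917 CPM in N2, also without overlap. Their median was -0.05, and 1 gene rose, *mex-5*, beside 3.64% of all tested genes. The part of these lists in the value of *spe-5* was not tested. The median of the 12 V1 and accessory genes was 0.05, with 10 above 0, beside 50.7% of all tested genes. In 4 of them the strains did not overlap in CPM, beside 25.1% of all tested genes. The 95% interval of each V0 gene had its upper bound below the estimate for *vha-12*, and the difference itself was not tested.

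**Figure D4:**
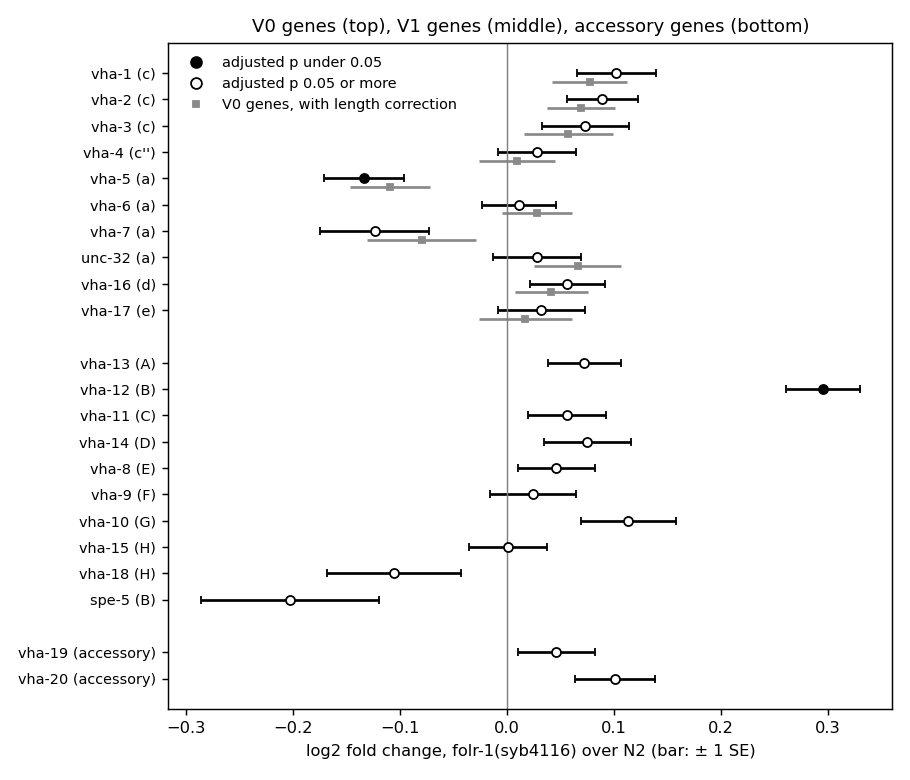
Log2 fold changes of *folr-1(syb4116)* over N2 with bars of ± 1 SE for the 10 V0 genes, the 10 V1 genes and the 2 accessory genes (edgeR, 3 libraries per strain). Filled circles mark an adjusted p under 0.05, reached by *vha-5* (-0.13) and *vha-12* (0.30), and grey squares give the V0 genes after correction for gene length.

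Lysosomal membrane proteins that work beside the pump and their regulators made up a further list. The list was chosen with earlier results of these data known. Of 15 such genes tested, 4 rose and 0 fell by edgeR, beside 3.64% and 3.32% of all tested genes. At an unadjusted p under 0.05, 4 were higher and 0 lower in the mutant, beside 10.3% and 9.91%. By limma-voom 4 rose, by DESeq2 2 and by limma on FPKM 1, and 0 fell by any of these. Those that rose by edgeR were *cln-3.3*, a relative of the human Batten disease gene (log2 fold change 0.585 ± 0.108, SE, adjusted p = 0.00247, edgeR), and *spin-3*, of the spinster transporter family (0.55 ± 0.136, adjusted p = 0.0200). The amino acid transporter genes *slc-36.1* (0.21 ± 0.059, adjusted p = 0.0372) and *laat-1* (0.20 ± 0.056, adjusted p = 0.0428) were the others. The listed relatives of *cln-3.3*, *cln-3.1* (0.12, adjusted p = 0.543, edgeR) and *cln-3.2* (0.15, adjusted p = 0.431), did not pass. Nor did those of *spin-3*, *spin-1* (0.08, adjusted p = 0.403, edgeR) and *spin-2* (-0.03, adjusted p = 0.928). *cln-3.3* had 10.8, 11.6 and 11.7 CPM in *folr-1(syb4116)* libraries, against 7.7, 8.4 and 6.6 CPM in N2 libraries, without overlap. It passed the test in all 17 alternatives, *spin-3* in 12, and *slc-36.1* and *laat-1* in 5 each, and with any 1 library left out 1 or 2 of the 15 genes passed. The median of the list was 0.075. *hlh-30*, the relative of the mammalian lysosome regulator TFEB, had a log2 fold change of -0.002.

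Across the 6 libraries the V0 genes did not all follow their own mean. The mean centred log2 CPM of the 10 genes lay at 0, 0.01 and 0.01 in *folr-1(syb4116)* libraries, against -0.01, -0.002 and -0.009 in N2 libraries, a very narrow span. Pearson's r of each gene with this mean, which includes that gene, was between 0.29 and 0.75 for the 8 genes with a positive fold change. It was -0.39 for *vha-7* and -0.95 for *vha-5*. Of 10551 other tested genes with at least 100 counts in every library, the closest to this mean over the 6 libraries were *immt-1* (r = 0.994), Y59H11AR.4 (r = 0.992) and *dhs-12* (r = 0.992). The values were not centred within each strain, so r includes the difference between the strains. In all 10 genes the sign of r was the same as that of the fold change. The libraries share their strain and scaling, and the closest genes were picked for their high r, so these values are a description.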

How the data were processed

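Poly-A RNA from whole L4 larvae was sequenced with paired-end reads, in 3 libraries of *folr-1(syb4116)* and 3 of N2. Per the labels, the authors used fastp, HISAT2 and featureCounts with build WBcel235 and deposited raw counts per gene. Tool versions are not given in the sources used here. The deposited FPKM values were made by the authors from the counts, a gene length and a scaled library size. Of 46661 gene IDs, 46177 were matched to one gene of the WBcel235 annotation.

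Strains were compared with edgeR 4.0.16, run in R 4.3.3 (filterByExpr, TMM, glmQLFit and glmQLFTest, strain as the only term), with p-values adjusted by Benjamini-Hochberg over 15432 genes and a threshold of 0.05. CPM was computed from the counts on TMM-scaled library sizes. Intervals are 95% intervals from the fit, with the SE taken from the fold change and the F statistic. Length correction used a lowess fit (span 0.3) on log2 gene length in each library. The fitted value was the deviation of a gene's log2 CPM from its mean over the libraries, and the fit entered the model as an offset. Alternatives used limma 3.58.1, limma-voom and DESeq2 1.42.0, other scalings and filters, a block for replicate number, and each library left out. Limma on FPKM used log2(FPKM + 1) or log2(FPKM + 0.1). Figures were drawn with matplotlib 3.10.9. The procedure was tested on simulated counts. The planted changes were far larger than those of the V0 genes, so this does not show how well such small changes are detected.

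The members and gene lists were chosen with earlier results of these data known. Named genes were the 10 members, V1, accessory and lysosome membrane genes that passed the test, *folr-1*, and the 3 genes whose profile over the libraries was most like the members' mean. Marker lists were described by counts and sums, and marker genes that passed, *spe-5* and *hlh-30* were named after their values were seen. So were *cln-3.1*, *cln-3.2*, *spin-1* and *spin-2*. *ostm-1*, 1 of 16 lysosome membrane genes listed, was not analysed here.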

Additional observations from a re-analysis of the deposited data

How the results depend on the processing

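The 10 V0 fold changes were recomputed under 17 alternatives, 170 values in all, of which 156 kept their direction and side of the threshold, 12 kept their direction and lost the call, and 2 changed sign. The 12 all belong to *vha-5*: DESeq2 with TMM factors (-0.134), limma on log2(FPKM + 1) (-0.132) and log2(FPKM + 0.1) (-0.135), the replicate block (-0.134), length correction without and with the replicate block (-0.110 and -0.110), and each library left out (-0.149 to -0.122). The count of V0 genes that fell was then 0, as it was at an adjusted p under 0.005 with a log2 fold change over 1. The sign changes were *vha-6* (-0.009 to 0.024 with a library left out, lowest without *folr-1(syb4116)* replicate 2) and *unc-32* (-0.004 to 0.064, lowest without N2 replicate 1). Over all genes, 894 rose without a filter, 310 and 309 by limma on FPKM with pseudocounts of 1 and 0.1, 335 to 529 with a library left out, and 4 at the strict threshold, and 268, 274, 337 to 470 and 138 fell by limma, with a library left out and at the strict threshold. V1 and accessory genes that rose numbered 0 at the strict threshold. Lysosome membrane genes that rose numbered 2 by DESeq2 with either scaling, 1 by limma on FPKM, 2 with the replicate block, 2 with length correction with or without it, 1 to 2 with a library left out and 0 at the strict threshold. Same-numbered libraries did not deviate together over all tested genes (correlations of -0.023, -0.045 and 0.013). With so few libraries this cannot exclude a pairing, and the sources used here do not say whether the numbers pair the libraries. The block moved no V0 call other than that of *vha-5*. The cause of the lost calls and sign changes was not tested. The call for *vha-5* was lost with any 1 library left out, and with all 6 libraries it was lost under the other settings named above.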
